A study of Anopheles arabiensis with 20 samples.

Results

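COX1 (ASK67_gp12), COX2 (ASK67_gp11) and COX3 (ASK67_gp08) are the mitochondrial genes for the 3 core subunits of cytochrome c oxidase, complex IV of the respiratory chain. Selected by gene ID, they are 3 of the 13867 genes of the count table and 3 of its 13 mitochondrial protein-coding genes. The species is the malaria vector *Anopheles arabiensis*, sequenced as 20 libraries in 5 groups of 4. A library holds the polyA-selected RNA of 10 pooled females, whole, adult, aged 3 to 5 days and not blood-fed. The field populations from south-west Ethiopia, Asendabo (ASN), Chewaka (CHW) and Tolay (TOL), were taken as larvae and raised to adults on site. The labels call these populations resistant to the insecticides deltamethrin and DDT, and state no exposure to either before RNA extraction. SEK (Sekoru, Ethiopia) and MOZ (Mozambique) are insecticide-susceptible laboratory strains, reared in a similar way per the labels. The study compared the resistant populations with the susceptible strains.

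Cytochrome c oxidase takes electrons from cytochrome c, passes them to oxygen and pumps protons across the inner mitochondrial membrane. COX1 holds the haem and copper centre where oxygen is reduced, COX2 holds the copper centre that receives electrons from cytochrome c, and COX3 completes the core next to COX1. In insects such as Drosophila, mitochondrial genes are transcribed as long shared precursors that are cut mainly at transfer RNAs, and the resulting messenger RNAs carry short polyA tails. In the RefSeq gene order of the assembly AaraD3, COX1 lies after ND2 and before COX2, and COX3 lies between ATP6 and ND3, with ATP8 and ATP6 between COX2 and COX3. The files name no genome build, so no coordinates or sequences are given.

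Library totals ran from 12205530 to 21516390 counts. The titles name 2 sequencing runs of 10 libraries, and field against strain nearly coincides with them: ASN and TOL were wholly in the first, SEK and MOZ wholly in the second, and CHW was split, with its replicates 1 and 2 in the first. Each COX gene had between 11690 and 1159978 counts in a library, and the widest 95% Wilson interval of a gene's share of all counts was 0.0215 percentage points, which covers counting error only. All 3 genes passed the filter on low counts, which 11018 genes passed.

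All 3 genes were highest in TOL and ASN, intermediate in CHW and SEK and lowest in MOZ. Levels are given as counts per 1000 counts of the library after TMM scaling, which sets libraries to a common level for the bulk of genes; 1 such unit is 1000 CPM. The mean level of COX1 ran from 65.8 per 1000 in TOL to 4.08 in MOZ. In pools of whole mosquitoes, fewer mitochondria-rich cells and less mitochondrial RNA per cell cannot be told apart.

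For COX1, the oxygen-reducing subunit, ASN replicates 1 to 4 had 60.9, 50.2, 59.5 and 51.3 per 1000 (mean 55.5 ± 5.55, SD, n = 4). TOL replicates 1 to 4 had 76.8, 74.4, 67.5 and 44.5 per 1000 (65.8 ± 14.8). These groups overlapped, since TOL replicate 4 lay below every ASN library and the other TOL libraries above. CHW replicates 1 to 4 had 17.2, 27.1, 44.3 and 11.1 per 1000 (24.9 ± 14.5), so the highest CHW library was 4.01 times the lowest and just below the lowest TOL library. SEK replicates 1 to 4 had 17.9, 23.2, 10.1 and 12.8 per 1000 (15.99 ± 5.77), inside or just below the range of CHW. MOZ replicates 1 to 4 had 6.80, 1.43, 5.36 and 2.73 per 1000 (4.08 ± 2.44), all below every other library.

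COX2, the subunit that receives electrons from cytochrome c, followed the same order of groups. It had 22.0, 17.2, 20.8 and 18.4 per 1000 in ASN replicates 1 to 4 (19.6 ± 2.18, SD, n = 4). TOL replicates 1 to 4 had 29.5, 22.7, 24.0 and 15.9 per 1000 (23.0 ± 5.59), again around the ASN range. CHW replicates 1 to 4 had 5.96, 9.22, 12.6 and 3.87 per 1000 (7.91 ± 3.81). SEK replicates 1 to 4 had 7.25, 9.30, 3.55 and 4.96 per 1000 (6.26 ± 2.53), which overlapped with CHW. MOZ replicates 1 to 4 had 3.29, 0.815, 2.54 and 2.01 per 1000 (2.17 ± 1.04), below all SEK libraries by a small margin.

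COX3 had 30.5, 24.9, 28.4 and 27.2 per 1000 in ASN replicates 1 to 4 (27.7 ± 2.34, SD, n = 4). TOL replicates 1 to 4 had 42.8, 39.1, 34.4 and 21.7 per 1000 (34.5 ± 9.17), with replicate 4 below the ASN libraries and the others above. CHW replicates 1 to 4 had 7.55, 11.6, 19.6 and 3.68 per 1000 (10.6 ± 6.83), a spread of 5.34 times. SEK replicates 1 to 4 had 6.85, 8.66, 3.27 and 4.36 per 1000 (5.79 ± 2.43). MOZ replicates 1 to 4 had 3.45, 0.853, 2.84 and 1.86 per 1000 (2.25 ± 1.14). For COX3, unlike the other two, MOZ and SEK overlapped, because MOZ replicate 1 lay above SEK replicate 3.

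**Figure D1:**
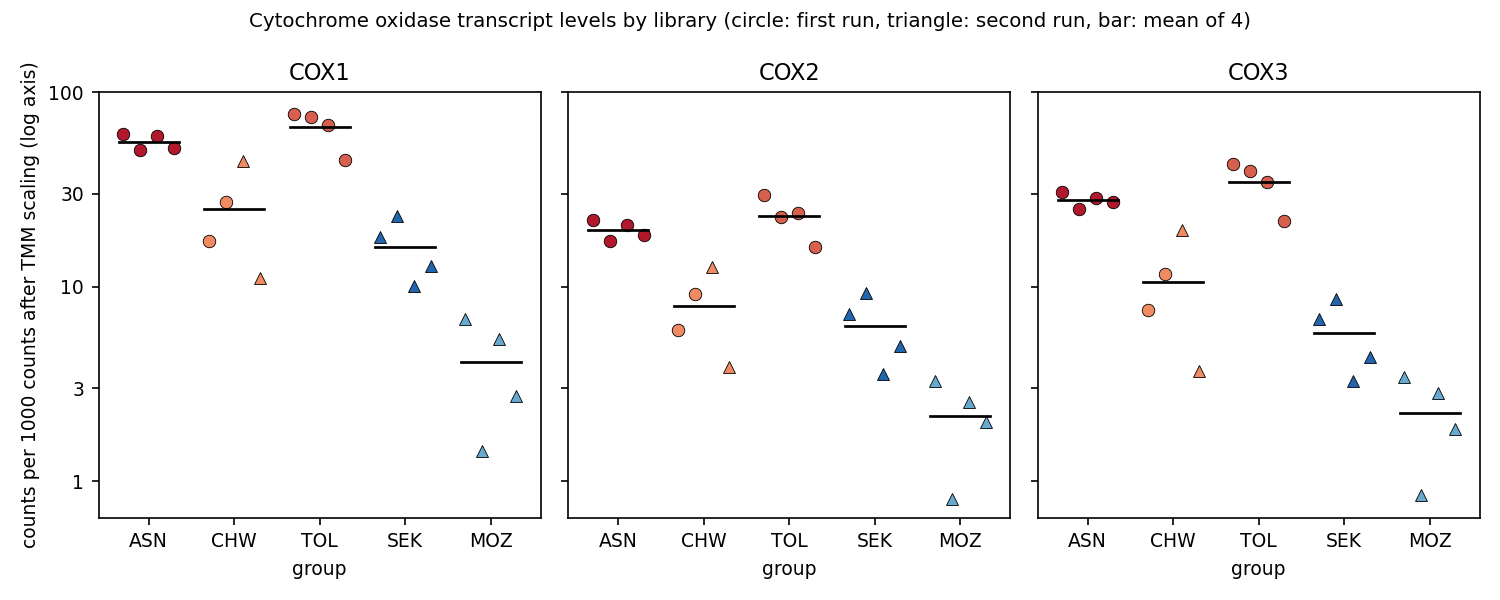
Level of COX1, COX2 and COX3 in each library, in counts per 1000 counts after TMM scaling on a log axis, by group; circles are libraries of the first sequencing run, triangles of the second, and bars the mean of 4. For COX1 the group means ran from 65.8 in TOL to 4.08 in MOZ, and CHW spread the widest among the field populations, from 11.1 to 44.3.

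Together the 3 genes took 10.1% ± 1.39 of all counts in TOL, 9.28% ± 0.645 in ASN, 4.30% ± 2.22 in CHW, 3.07% ± 0.810 in SEK and 0.988% ± 0.559 in MOZ (SD, n = 4 each). Among the counts of the 13 mitochondrial protein-coding genes their share was more even. It averaged 76.3% ± 3.30 in CHW, 72.4% ± 0.602 in SEK, 69.3% ± 5.29 in ASN, 69.3% ± 4.09 in MOZ and 68.6% ± 3.06 in TOL. The lowest library was MOZ replicate 2 at 63.5% and the highest CHW replicate 3 at 79.2%.

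The comparison the study was designed for sets field populations against strains. A gene was called when edgeR's quasi-likelihood test gave a Benjamini-Hochberg adjusted p under 0.05 over all tested genes and the fold change was at least 2. With the populations averaged and set against the average of the strains, all 3 genes rose, where 3.91% of tested genes were called higher. The log2 fold change was 2.48 for COX1 (SE 0.294, edgeR adjusted p 4.21e-06), 2.05 for COX2 (SE 0.261, adjusted p 7.97e-06) and 2.59 for COX3 (SE 0.306, adjusted p 4.07e-06). Field and strain libraries nevertheless overlapped for all 3 genes, through CHW and SEK, while 1.02% of tested genes had no overlap. With the run as a covariate, which CHW alone identifies, the log2 fold changes were 2.74, 2.15 and 2.82, with edgeR adjusted p of 0.00796, 0.0167 and 0.00840.

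Against SEK, the Ethiopian strain, COX1, COX2 and COX3 rose in ASN and in TOL and were not called in CHW. In ASN the log2 fold changes were 1.79 for COX1 (SE 0.424, edgeR adjusted p 0.00490), 1.64 for COX2 (SE 0.383, adjusted p 0.00436) and 2.26 for COX3 (SE 0.446, adjusted p 0.00134), where 4.87% of tested genes were called higher. In TOL, where 5.84% were called higher, they were 2.04, 1.88 and 2.58 (edgeR adjusted p 0.00163, 0.00140 and 0.000377). None of the ASN or TOL libraries overlapped with SEK in any of the 3 genes, which held for 25.4% of tested genes in ASN and 28.3% in TOL. The call depended on how the run was treated. With the run as a covariate, the 3 ASN differences had edgeR adjusted p of 0.0877, 0.116 and 0.0530 and COX2 in TOL had 0.0610, although their log2 fold changes, 2.12, 1.76 and 2.55 in ASN and 1.99 for COX2 in TOL, were no smaller.

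CHW libraries overlapped with SEK libraries in all 3 genes and no gene was called, where 3.66% of tested genes were called and 15.4% had no overlap. The log2 fold change was 0.64 for COX1 (95% interval -0.22 to 1.50, edgeR adjusted p 0.351), 0.34 for COX2 (-0.44 to 1.12, adjusted p 0.624) and 0.88 for COX3 (-0.02 to 1.77, adjusted p 0.207). The intervals leave room for a rise of 2.83-fold in COX1, 2.17-fold in COX2 and 3.42-fold in COX3. The values depended on single libraries. Without CHW replicate 3 they were 0.21, 0.02 and 0.39, the lowest when 1 library was left out, while the highest were 0.87 and 0.59 without SEK replicate 2 and 1.14 for COX3 without CHW replicate 4. The lowest unadjusted edgeR p of the 3 genes was 0.0553, for COX3, so 0 were under 0.05, and DESeq2 called none.

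Against MOZ, the strain from Mozambique, the 3 genes rose in every population. TOL had the largest differences, with log2 fold changes of 4.01 for COX1 (SE 0.465, edgeR adjusted p 2.91e-06), 3.41 for COX2 (SE 0.410, adjusted p 4.37e-06) and 3.94 for COX3 (SE 0.480, adjusted p 4.98e-06), or 16.1-fold, 10.6-fold and 15.3-fold. In TOL 7.73% of tested genes were called higher than in MOZ. In ASN, where 8.28% were called higher, the log2 fold changes were 3.77, 3.18 and 3.62 (edgeR adjusted p 3.56e-06, 5.76e-06 and 7.20e-06). In CHW, where 4.68% were called higher, they were 2.61, 1.87 and 2.24 (edgeR adjusted p 0.000192, 0.00113 and 0.000848). No field library overlapped with MOZ in any of the 3 genes, as was the case for 38.1% of tested genes in TOL, 40.7% in ASN and 29.4% in CHW. The comparisons against one strain share its libraries and are not independent. Scaling by library totals alone moved the median of all tested genes, most of all by -0.47 in TOL vs MOZ, where the log2 fold changes of COX1, COX2 and COX3 became 3.50, 2.90 and 3.43.

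The strains also differed from each other. All 3 genes were lower in MOZ than in SEK, where 6.29% of tested genes were called lower. COX1 fell by 1.97 on the log2 scale (SE 0.427, edgeR adjusted p 0.00120), COX2 by 1.53 (SE 0.382, adjusted p 0.00357) and COX3 by 1.36 (SE 0.434, adjusted p 0.0169). COX1 and COX2 did not overlap between the strains, as held for 36.5% of tested genes, and COX3 did. The COX3 call ended in the second run alone (log2 fold change -1.35, edgeR adjusted p 0.0638) and without SEK replicate 2 (adjusted p 0.0595).

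Among the field populations, no difference was called between ASN and TOL, and both lay above CHW. For ASN vs TOL, where 1.39% of tested genes were called and 11.4% had no overlap, the log2 fold changes were -0.25 for COX1 (95% interval -1.11 to 0.61, edgeR adjusted p 0.790), -0.23 for COX2 (-1.01 to 0.55, adjusted p 0.781) and -0.31 for COX3 (-1.21 to 0.58, adjusted p 0.735). No unadjusted p was under 0.05 there, and DESeq2 called none of the 3. CHW was lower than TOL in all 3 genes, by 1.40, 1.54 and 1.70 on the log2 scale (edgeR adjusted p 0.0335, 0.0130 and 0.0160), where 2.72% were called lower. ASN was above CHW in COX2, with a log2 fold change of 1.31 (edgeR adjusted p 0.0266), and in COX3, with 1.39 (adjusted p 0.0397), where 2.82% were called higher. COX1, at 1.16, was not called in ASN vs CHW (edgeR adjusted p 0.0737). CHW libraries did not overlap with ASN or TOL libraries in any of the 3 genes, as held for 16.1% of tested genes against ASN and 15.8% against TOL.

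These differences with CHW were close to the threshold. Within the first run, with CHW replicates 1 and 2, the log2 fold change of COX1 for ASN vs CHW was 1.33 and was called (edgeR adjusted p 0.0116). There the calls of COX2 and COX3 in ASN vs CHW and of all 3 genes in CHW vs TOL were kept. With the run as a covariate the differences were no smaller but none of the 3 genes was called for CHW vs TOL, at -1.57, -1.60 and -1.85 (edgeR adjusted p 0.0773, 0.0512 and 0.0508). Neither was COX2 at 1.37 (adjusted p 0.0955) nor COX3 at 1.54 (0.102) for ASN vs CHW. With the replicate number as a block, COX1 was called for ASN vs CHW (edgeR adjusted p 0.0460).

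**Figure D2:**
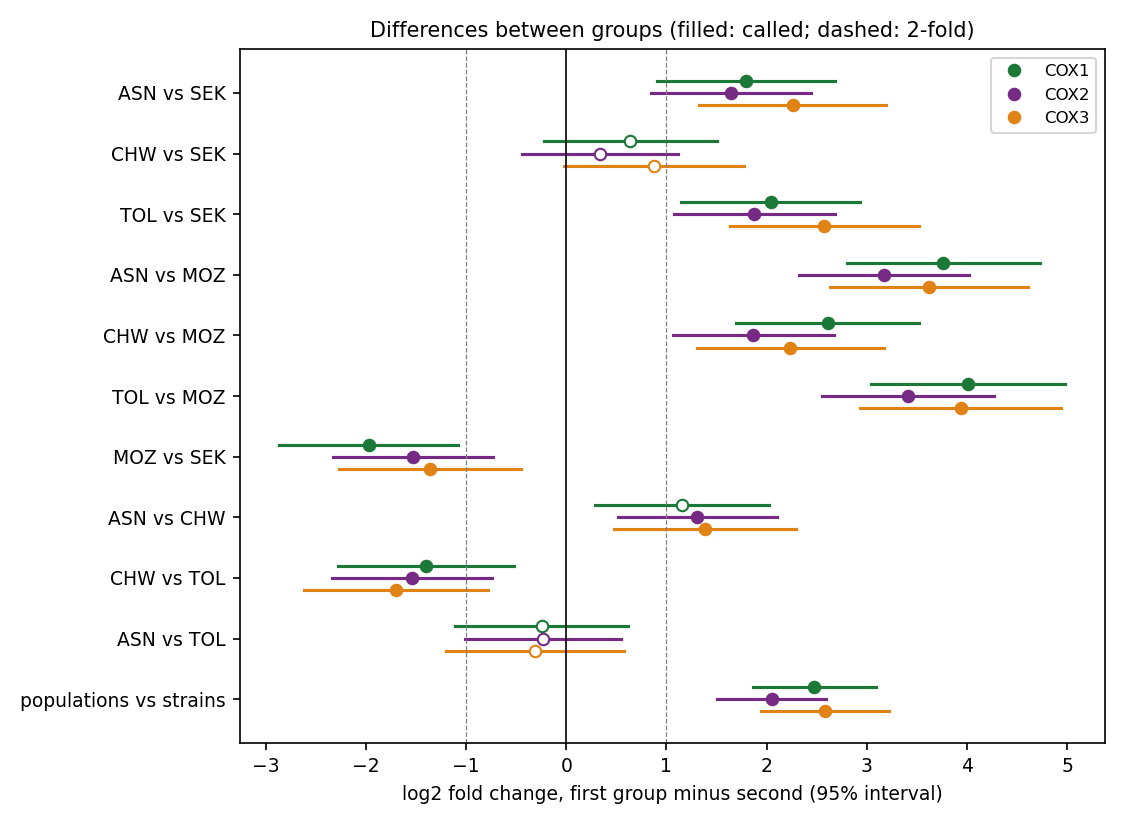
Log2 fold change of COX1, COX2 and COX3 in 11 comparisons, first group minus second, with 95% intervals; filled points passed an adjusted p under 0.05 with at least a 2-fold change, and dashed lines mark 2-fold. TOL vs MOZ lies highest, at 4.01, 3.41 and 3.94, while the points of CHW vs SEK and ASN vs TOL are open with intervals that include 0.

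CHW was the only group in both runs. The libraries of its second run had the highest level of each COX gene in the group, in replicate 3, and the lowest, in replicate 4. Between the runs the log2 difference was 0.32 for COX1 (95% interval -0.92 to 1.57), 0.12 for COX2 (-1.02 to 1.25) and 0.29 for COX3 (-1.004 to 1.58), each with an edgeR adjusted p of 1. The lowest unadjusted edgeR p of the 3 genes was 0.591. Over all genes tested between the runs, 0 of 11352 were called and 593 had an unadjusted p under 0.05. With 2 libraries a run, the intervals are wide, and without CHW replicate 3 the differences were -0.9998, -0.97 and -1.38.

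The proportions of the 3 transcripts to each other were compared next, as ratios of counts inside a library, which library scaling leaves as they are. Gene length enters each ratio, so a ratio was compared between libraries only. Each of 3 ratios was compared in 10 pairs of groups by an exact 2-sided permutation test on log2 ratios, with Benjamini-Hochberg adjustment over the 30 tests. With 4 libraries against 4 the smallest possible p is 0.0286. It was reached in 16 of the 30 tests, those without overlap, and its adjusted value was 0.0536, so no ratio passed an adjusted threshold of 0.05. Over all 780 such comparisons of pairs of mitochondrial protein-coding genes, 33.8% had no overlap.

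COX2 relative to COX1 was higher in every MOZ library than in any other library, without passing the adjusted threshold. The ratio of COX2 to COX1 counts was 0.484, 0.570, 0.474 and 0.737 in MOZ replicates 1 to 4 (0.566 ± 0.122, SD, n = 4). The other 16 libraries lay between 0.284 in CHW replicate 3 and 0.404 in SEK replicate 1. The share of all ratios of 2 mitochondrial protein-coding genes that set MOZ apart from these 16 together was not counted. Without MOZ replicate 4 the log2 difference of MOZ from SEK was 0.40, the lowest when 1 library was left out. On the log2 scale MOZ was higher than SEK by 0.53 (exact permutation p 0.0286, adjusted 0.0536), where 53.8% of the ratios of 2 mitochondrial protein-coding genes had no overlap. The differences of ASN, CHW and TOL from MOZ were -0.66, -0.76 and -0.67 with the same p, where 39.7%, 32.1% and 39.7% had no overlap. COX2 relative to COX1 was also lower in CHW than in SEK, by a log2 difference of -0.23 with the same p, where 16.7% had no overlap. MOZ and SEK were in the same run, and the second-run CHW libraries alone differed by -0.82 from MOZ. The exact permutation p was 0.0667 there, the smallest possible for 2 libraries against 4. The share of all such ratios without overlap was not counted within a run. The separation of CHW from SEK was narrow, with 0.3502 in CHW replicate 4 below 0.3505 in SEK replicate 3, and without CHW replicate 3 the difference was -0.16.

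COX3 relative to COX1 was lowest in SEK and highest in MOZ. The ratio was 0.383, 0.374, 0.323 and 0.341 in SEK replicates 1 to 4 (0.355 ± 0.0279, SD, n = 4). MOZ replicates 1 to 4 had 0.508, 0.596, 0.529 and 0.680 (0.578 ± 0.0774). CHW had 0.411 ± 0.0524, ASN 0.501 ± 0.0220 and TOL 0.520 ± 0.0286. The log2 difference from SEK was 0.50 in ASN, 0.55 in TOL and 0.70 in MOZ (exact permutation p 0.0286 and adjusted 0.0536 for each). In ASN vs SEK, TOL vs SEK and MOZ vs SEK, 50.0%, 56.4% and 53.8% of the ratios of 2 mitochondrial protein-coding genes had no overlap. ASN and TOL were also in another run than SEK. CHW did not separate from SEK in this ratio (0.20, exact p 0.143, adjusted 0.195). CHW was lower than MOZ by 0.49, than ASN by 0.30 and than TOL by 0.35 on the log2 scale, each without overlap. Within one run, where 2 CHW libraries face 4, the log2 difference in COX3/COX1 was 0.21 in ASN vs CHW, while CHW vs TOL gave -0.26 and CHW vs MOZ -0.58, each without overlap (exact permutation p 0.0667, the smallest possible). By chance, 2 libraries separate from 4 more readily than 4 from 4, and the share of all such ratios without overlap was not counted within a run. MOZ overlapped with ASN and with TOL in this ratio. With all 4 libraries of each group, 24.4% of such ratios had no overlap between ASN and CHW, 25.6% between TOL and CHW and 32.1% between MOZ and CHW. No pair of ASN and TOL differed in this way in any of the 3 ratios, nor did any other ratio of 2 mitochondrial protein-coding genes (0.00%).

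COX3 relative to COX2 was higher in every ASN and TOL library than in any SEK or MOZ library, without passing the adjusted threshold. These groups also differ in run, with ASN and TOL in the first and SEK and MOZ in the second. The share of all ratios of 2 mitochondrial protein-coding genes that set ASN and TOL together apart from SEK and MOZ was not counted. The ratio was 1.39, 1.45, 1.37 and 1.48 in ASN replicates 1 to 4 (1.42 ± 0.0520, SD, n = 4). TOL replicates 1 to 4 had 1.45, 1.73, 1.43 and 1.37 (1.49 ± 0.159). SEK replicates 1 to 4 had 0.946, 0.931, 0.921 and 0.880 (0.920 ± 0.0283), and MOZ replicates 1 to 4 had 1.05, 1.05, 1.12 and 0.922 (1.03 ± 0.0807). CHW replicates 1 to 4 had 1.27, 1.26, 1.56 and 0.950, with replicate 3 above every ASN library and replicate 4 just above the highest SEK library. The log2 difference from SEK was 0.63 in ASN, 0.69 in TOL and 0.43 in CHW, and from MOZ 0.46 in ASN and 0.53 in TOL (exact permutation p 0.0286 and adjusted 0.0536 for each). Of all ratios of 2 mitochondrial protein-coding genes, 50.0%, 56.4% and 16.7% had no overlap with SEK in ASN, TOL and CHW, and 39.7% had none with MOZ in ASN and in TOL. In CHW vs SEK, in which no COX level was called, the second-run libraries alone gave a log2 difference of 0.41 in this ratio. The 2 CHW libraries, at 1.56 and 0.950, did not overlap with the 4 SEK libraries, the highest of which had 0.946. The exact permutation p was 0.0667, the smallest possible for 2 libraries against 4. The share of all ratios of 2 mitochondrial protein-coding genes without overlap was not counted within a run.

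**Figure D3:**
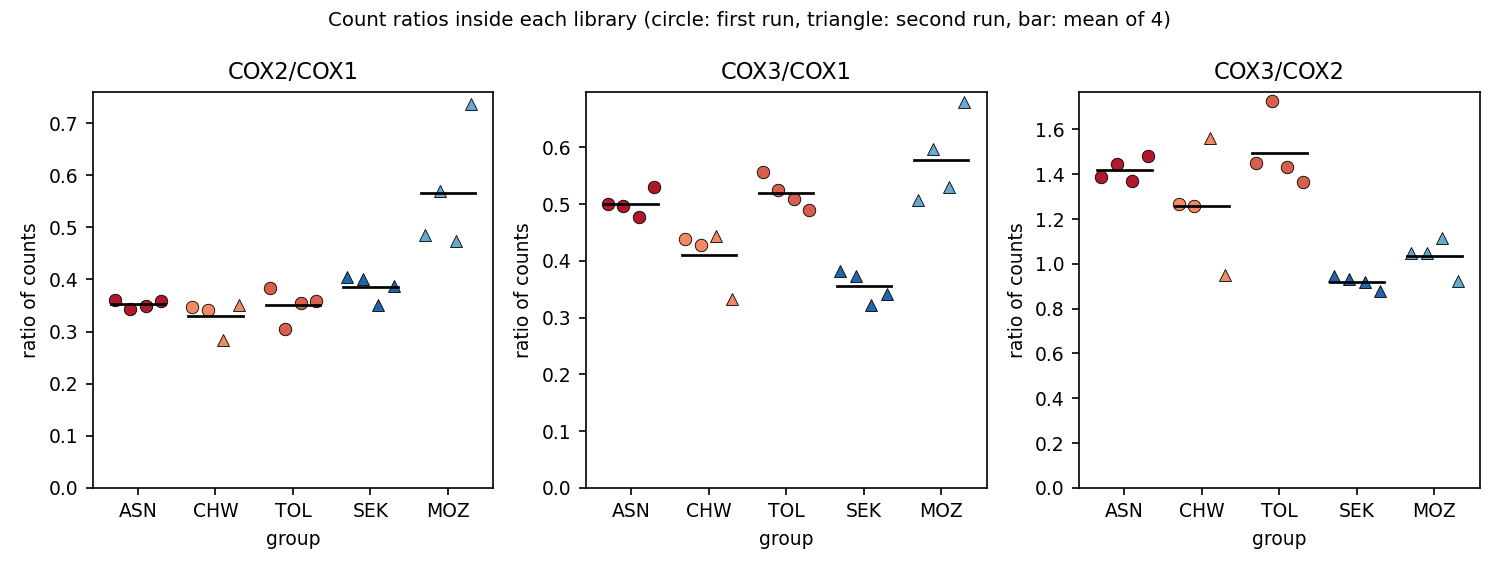
Ratio of counts of COX2 to COX1, COX3 to COX1 and COX3 to COX2 in each library by group; circles are libraries of the first sequencing run, triangles of the second, and bars the mean of 4. MOZ lies highest in COX2/COX1 at 0.474 to 0.737, and SEK lowest on average in COX3/COX1. The ASN and TOL libraries, all of the first run, lie above all SEK and MOZ libraries, all of the second run, in COX3/COX2.

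Within groups the 3 transcripts moved together from library to library. The 4 libraries had the same order in all 3 genes in ASN, CHW, SEK and MOZ, and in TOL only replicates 2 and 3 changed places, in COX2. CHW replicate 3 lay 1.02, 0.81 and 1.14 above its group's mean log2 CPM in COX1, COX2 and COX3, and CHW replicate 4 lay at -0.98, -0.89 and -1.28. MOZ replicate 2 lay at -1.27, -1.24 and -1.22. Over the 20 libraries the deviations from group means had a Pearson r of 0.970 between COX1 and COX2, 0.980 between COX1 and COX3 and 0.980 between COX2 and COX3, as a description of libraries that share groups, depth and scaling.

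Of 11017 other tested genes, those most like each COX gene were mitochondrial. The 3 genes with the highest r of log2 CPM over the 20 libraries were the other two COX genes and CYTB, the mitochondrial subunit of complex III, for each member. The r with CYTB was 0.990 for COX1, 0.994 for COX2 and 0.989 for COX3, and for deviations from group means 0.971, 0.965 and 0.976. The nuclear genes with the highest r were AARA003127 for COX1 (0.966) and AARA008605 for COX2 and COX3 (0.957 and 0.963). AARA003127 had 41.2 ± 3.67 CPM in TOL, 41.1 ± 1.96 in ASN, 32.6 ± 5.55 in CHW, 29.8 ± 0.970 in SEK and 20.3 ± 2.80 in MOZ (SD, n = 4), a far narrower range than COX1. The lowest r were those of AARA001116, at -0.932 for COX1 and -0.926 for COX2, and of AARA001942, at -0.921 for COX3. The files pair none of these nuclear IDs with a gene name.

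The ratio of COX3 to CYTB counts was 0.660 to 0.776 in SEK and 0.922 to 1.32 in the other 16 libraries, a difference that was not tested. Of all ratios of 2 mitochondrial protein-coding genes, 50.0% in ASN, 56.4% in TOL, 53.8% in MOZ and 16.7% in CHW also had no overlap with SEK. The share that set SEK apart from the other 16 libraries together was not counted. COX1 relative to CYTB ran from 2.16 to 2.98 in CHW and from 1.57 to 2.56 in the other groups.

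The levels of the genes next to COX3 varied relative to it. ATP6, a subunit of ATP synthase and the neighbour of COX3 on one side, had 0.479, 0.155, 0.506 and 0.479 counts per COX3 count in ASN replicates 1 to 4, and 0.454, 0.196, 0.431 and 0.467 in TOL replicates 1 to 4. Replicate 2 was low in both groups. The ratio was 0.0993 to 0.183 in CHW, 0.166 to 0.191 in SEK and 0.167 to 0.295 in MOZ. ND3, a complex I subunit on the other side of COX3, had 0.0110 counts per COX3 count in ASN replicate 2 and 0.00776 in TOL replicate 2, against 0.0399 to 0.0574 in the other libraries of these groups. It had 0.00735 to 0.0249 in CHW, with replicate 3 lowest of all 20 libraries, 0.0178 to 0.0227 in SEK and 0.0249 to 0.0693 in MOZ. Another gene was low in both replicates 2 as well. ND2, the complex I gene before COX1, had 0.00220 and 0.00188 counts per COX1 count in replicate 2 of ASN and of TOL, against 0.0159 to 0.0301 in the other ASN and TOL libraries. The ND2 ratio was 0.00115 to 0.0143 in CHW, with replicate 3 lowest of all 20 libraries. In SEK it was 0.00729 to 0.0109 and in MOZ 0.00618 to 0.0241. COX1, COX2 and COX3 themselves stayed within 0.23 of the group mean log2 CPM in replicate 2 of ASN and of TOL.

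**Figure D4:**
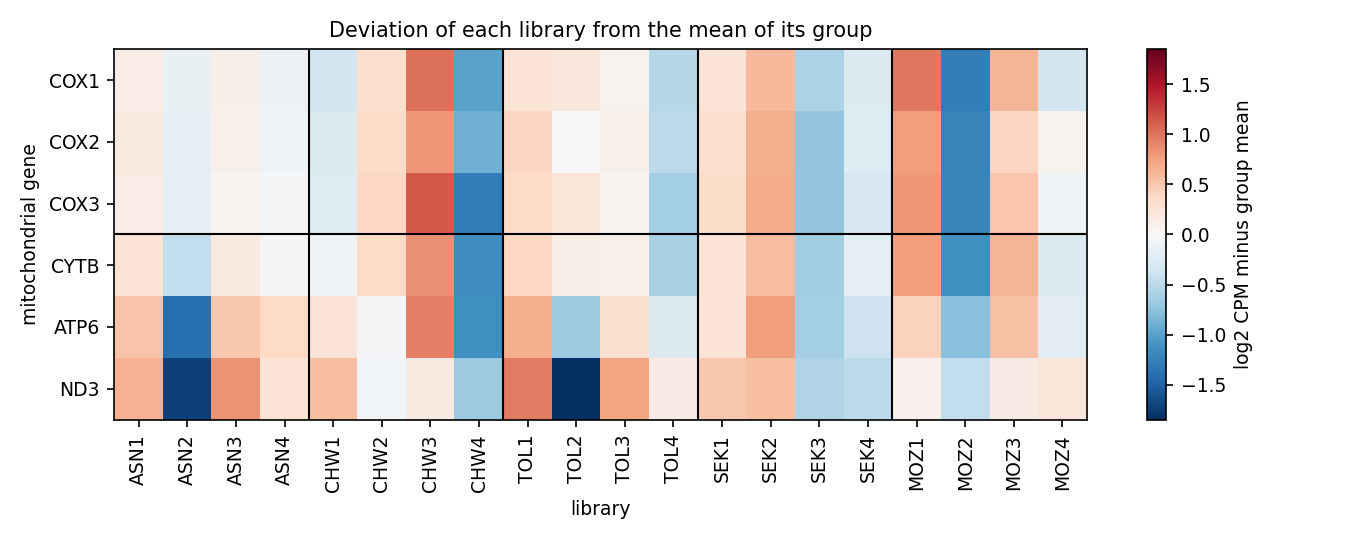
Log2 CPM of COX1, COX2, COX3, CYTB, ATP6 and ND3 in each library (columns, by group) minus the mean of its group; red is above and blue below. The COX rows share their pattern, with CHW replicate 3 at 1.02, 0.81 and 1.14 and MOZ replicate 2 at -1.27, -1.24 and -1.22, while ATP6 and ND3 are low in ASN replicate 2 and TOL replicate 2.

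The other 10 mitochondrial protein-coding genes give the setting of these values. For the populations against the strains, 9 of the 10 were called higher and 0 lower, with a median log2 fold change of 2.43, beside 2.48 for the 3 COX genes and -0.01 for all tested genes. ATP6 had the largest value, at 3.08, and ND6, a complex I subunit, the smallest, at 0.01. Against SEK, 7 of the 10 were called higher in ASN and 7 in TOL, with medians of 2.04 and 2.41, and the COX medians were 1.79 and 2.04. In CHW vs SEK edgeR called 0 of the 10, with a median of 0.23, beside a COX median of 0.64. ND1, a complex I subunit, alone had an unadjusted p under 0.05 there (0.00821, log2 fold change 0.92). In MOZ vs SEK 7 of the 10 were called lower, with a median of -1.45, beside -1.53 for the COX genes. ATP8 was the lowest there, at -3.15, but rests on at most 23 counts per MOZ library, and its gene overlaps that of ATP6 in the reference, so its counts are uncertain. Of the 2 mitochondrial ribosomal RNA genes, ASK67_gr02 was called in none of the 11 comparisons; for the populations against the strains its log2 fold change was 0.54, under 2-fold (edgeR adjusted p 0.0147). ASK67_gr01 was called higher there, at 1.87.

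**Figure D5:**
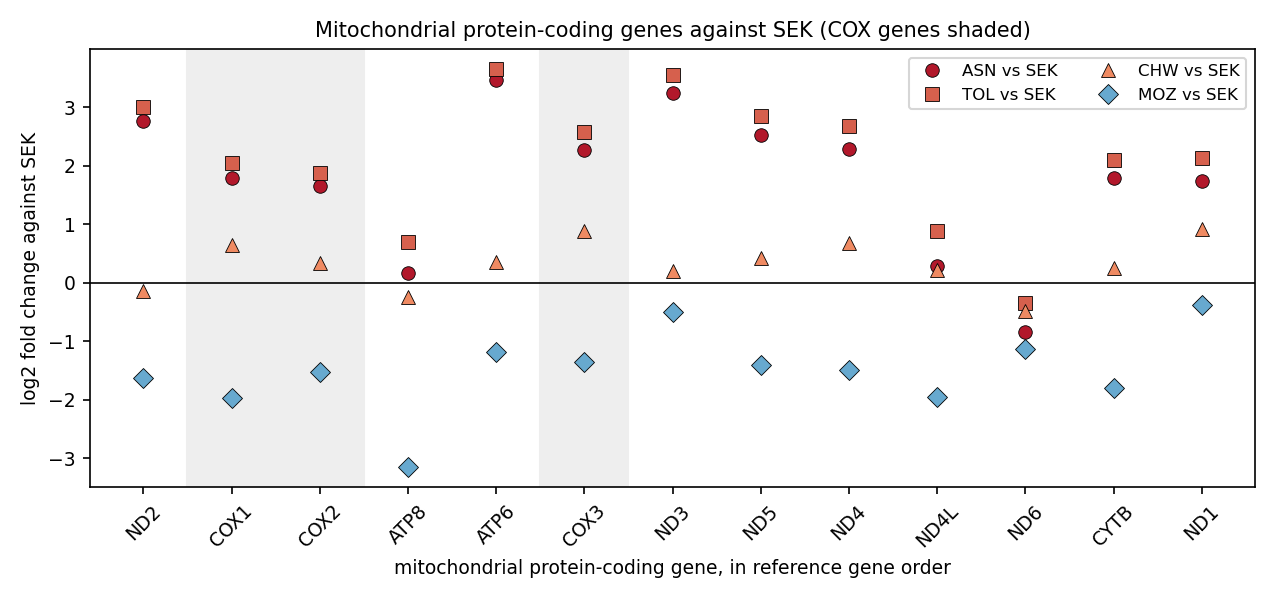
Log2 fold change against SEK of the 13 mitochondrial protein-coding genes in reference gene order, for ASN, TOL, CHW and MOZ, which share the SEK libraries; the COX genes are shaded. In ASN, COX1, COX2 and COX3 lie at 1.79, 1.64 and 2.26, below ATP6 at 3.46 and above ND6 at -0.84.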

How the data were processed

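The authors deposited whole-number counts per gene without normalization, judged from the values. The submitters' processing notes name FastQC 0.11.4, HISAT2, Cufflinks, SAMtools 1.5 and HTSeq 0.9.0. What each tool was used for, the build, the annotation and the strand setting of the counting were not given in the sources used, so counts of overlapping genes, or of genes with nuclear copies, are uncertain. All 20 columns matched a sample by name. The labels call the 4 replicates of a group biological but name no separate collections or cages, so p-values measure the spread between these pools, and no 2 libraries of a group agreed within sampling noise (chi-square per degree of freedom at least 25.4).

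In R 4.3.3, edgeR 4.0.16 was fitted to all 20 libraries with the 5 groups, filterByExpr and TMM scaling, and p-values were adjusted over 11018 genes. The comparison of runs within CHW came from a separate fit with CHW split by run, adjusted over 11352 genes. The SE is the log2 fold change divided by the square root of F, and intervals use its t distribution. Log2 CPM used a prior count of 2, and ratios added 0.5 to each count. DESeq2 1.42.0, other scalings, the run as a covariate and leaving out libraries were alternatives. Genes most like a member were named by r, the 3 highest, with at most 2 unnamed IDs each way. ATP6, ND6 and ATP8 are named as the extremes of the other 10 genes, and neighbours and CYTB for position and likeness. Members and lists were chosen with earlier results of these data known.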

Additional observations from a re-analysis of the deposited data

Results flagged for a closer look

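Among 30 sets of 4 libraries (3 levels and 3 ratios in 5 groups), 2 held a library far from the others by Dixon's 95% criterion for 4 samples; by chance about 1 in 20 would. The log2 ratio of COX2 to COX1 was -1.82 in CHW replicate 3, against -1.55 to -1.51 in the other CHW libraries, and the gap was 0.866 of the range. The log2 ratio of COX3 to COX1 was -1.59 in CHW replicate 4, against -1.23 to -1.17, with a gap of 0.876. CHW replicate 3 had the highest and CHW replicate 4 the lowest level of all 3 genes in CHW, and both were in the second run. The part of level or run in these ratios was not tested.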

How the results depend on the processing

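Of the 33 log2 fold changes of COX1, COX2 and COX3, 26 were called, and 16 of these kept their call under each of up to 32 alternatives. None of the 33 changed sign. Dropping the fold requirement is among these alternatives but uses the same fit, so it can neither lose a call nor change a sign. The 16 are all those against MOZ in the populations, COX1 and COX2 in MOZ vs SEK, COX1 and COX3 in TOL vs SEK, and the 3 of the populations against the strains. The cause of the changes below was not tested.

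With the run as a covariate, calls were lost for COX1, COX2 and COX3 in ASN vs SEK (2.12, 1.76, 2.55), COX2 in TOL vs SEK (1.99), COX2 and COX3 in ASN vs CHW (1.37, 1.54) and all 3 in CHW vs TOL (-1.57, -1.60, -1.85). The other mitochondrial protein-coding genes called fell from 7 to 2 in ASN vs SEK, from 7 to 4 in TOL vs SEK and from 6 to 3 in ASN vs CHW. The replicate numbers share no stated origin, and same-numbered libraries of 2 groups had r of deviations from -0.187 to 0.530, over 0.1 in 8 of 40 pairs and highest for their own number in 14, so they were not taken as pairs. The replicate block with the run lost ASN vs SEK (2.23, 1.90, 2.69), COX2 in TOL vs SEK (2.10), COX2 and COX3 in ASN vs CHW (1.48, 1.71) and COX1 in CHW vs TOL (-1.67). The replicate block alone called COX1 in ASN vs CHW (1.25), as did DESeq2 (1.18) and the first run alone (1.33), and changed no other call. Pairing the ratios by replicate number cannot change a difference of means with 4 libraries in each group, and with 4 pairs no exact p can be under 0.125. COX3 in MOZ vs SEK was lost in the second run alone (-1.35) and without SEK replicate 2 and TOL replicate 1 (-1.10), as was COX1 in CHW vs TOL (-1.32). Without replicate 2 of ASN and of TOL, COX2 and COX3 in ASN vs CHW (1.37, 1.44) and COX1 and COX3 in CHW vs TOL (-1.34, -1.63) were lost. These 2 pairs of libraries were chosen after seeing the data.

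Leaving out 1 library moved the uncalled CHW vs SEK values, down to 0.21, 0.02 and 0.39 without CHW replicate 3. It gave -1.65 to -1.10 for COX3 in MOZ vs SEK (lost without SEK replicate 2). In ASN vs CHW it gave 0.93 to 1.59 for COX1 (called without CHW replicate 3 or MOZ replicate 2), 1.10 to 1.62 for COX2 (lost in 4 cases) and 1.12 to 1.87 for COX3 (lost in 6). In CHW vs TOL it gave -1.83 to -1.17 for COX1 (lost in 6) and -2.18 to -1.43 for COX3 (lost without CHW replicate 1). For the second against the first run in CHW it gave -0.9998 to 0.97, -0.97 to 0.69 and -1.38 to 1.002. The log2 ratio differences of ASN vs TOL, none of which passed the test, ranged from -0.0509 to 0.0603 for COX2/COX1 and -0.11 to 0.00405 for COX3/COX2, and medians gave -0.0120 for COX2/COX1. The share of counts in the COX genes was 11.1% in ASN and 12.4% in TOL without mitochondrial ribosomal RNA in the denominator, and 13.2% and 15.2% against nuclear counts alone.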
